A study of Mus musculus with 4 samples.

Results

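The clustered protocadherin genes lie in a row on mouse chromosome 18 as the subclusters Pcdha, Pcdhb and Pcdhg, and their occupancy by RIF1 in activated B cells is described here. The members were the protein-coding genes of the mm9 annotation (GENCODE M1) whose symbol begins with Pcdha, Pcdhb or Pcdhg, which gave 24 of 22380 coding genes. Pcdha was represented by 2 gene models, Pcdhb by 21 and Pcdhg by 1. The annotation joins nearly all Pcdha transcripts under the symbol Pcdha11 (10 transcripts) and all Pcdhg transcripts under Pcdhgc5 (10 transcripts). The 24 genes thus carry 46 annotated transcript start sites, and both units are given below. The 46 are not a count of promoters. Some lie close together, such as chr18:37678007 and chr18:37678013 in Pcdhb22, and the annotation may lack others.

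Clustered protocadherins are cell surface adhesion proteins of the cadherin superfamily, known for giving individual neurons a surface identity. In Pcdha and Pcdhg, each large variable exon has its own promoter and is spliced to constant exons shared by the whole subcluster, whereas Pcdhb genes mostly consist of a single exon and share none. A neuron uses a few of these promoters, a choice that is known to depend on distant enhancers, on the DNA-binding protein CTCF and on cohesin. RIF1 is a replication timing factor, known for binding broad late-replicating domains in other cell types. In activated B cells, the study reports it mostly in early-replicating chromatin, with its broad domains largely early-replicating too. The replication timing of the clusters was not examined here.

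RIF1 was precipitated through its tag with an anti-HA antibody from primary splenic B cells and the DNA was sequenced (ChIP-seq). The Rif1FH group (2 samples, genotype Rif1FH/FH) carries the FLAG and HA epitopes at the N terminus of the endogenous protein, and the Rif1WT group (2 samples, C57BL/6, Rif1WT/WT) is the untagged negative control. Both were on a C57BL/6 background, were activated with LPS at 5 µg/ml and IL-4 at 5 ng/ml and were taken at 72 h, and the age of the mice is not given in the sources used here. The deposited list holds the positions of intervals kept from both Rif1FH samples, with no score and no value per sample, so the spread between samples and the Rif1WT background at these genes are unknown and no test was possible. The cell type could not be checked against marker genes, because the list holds no expression values.

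The list held 16332 intervals. The 16043 narrow intervals, under 50 kb, are called peaks. The 289 wide intervals, of 50 kb or more, are taken to be RADs, RIF1-associated domains over which RIF1 is enriched broadly and at a lower level. Peaks reached 14.8 kb, and wide intervals began at 90 kb. No peak overlapped a wide interval, since the study kept as peaks those outside RADs.

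No protocadherin of the clusters had a listed RIF1 peak, either at its 5′ end or anywhere in its gene. The span from the first Pcdha to the last Pcdhg base (chr18:37089939-38001527, 912 kb) contained 0 peaks. Of this span, 690 kb lay outside wide intervals and could hold a listed peak, and a count of 0 over that length allows up to 4.35 peaks per Mb in counting error alone. Chromosome 18 held 6.68 peaks per Mb between its first and last interval, but peaks are not spread evenly, so these values are not a test. Pcdhg, in contrast to Pcdha and Pcdhb, lay inside a wide interval.

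**Figure D1:**
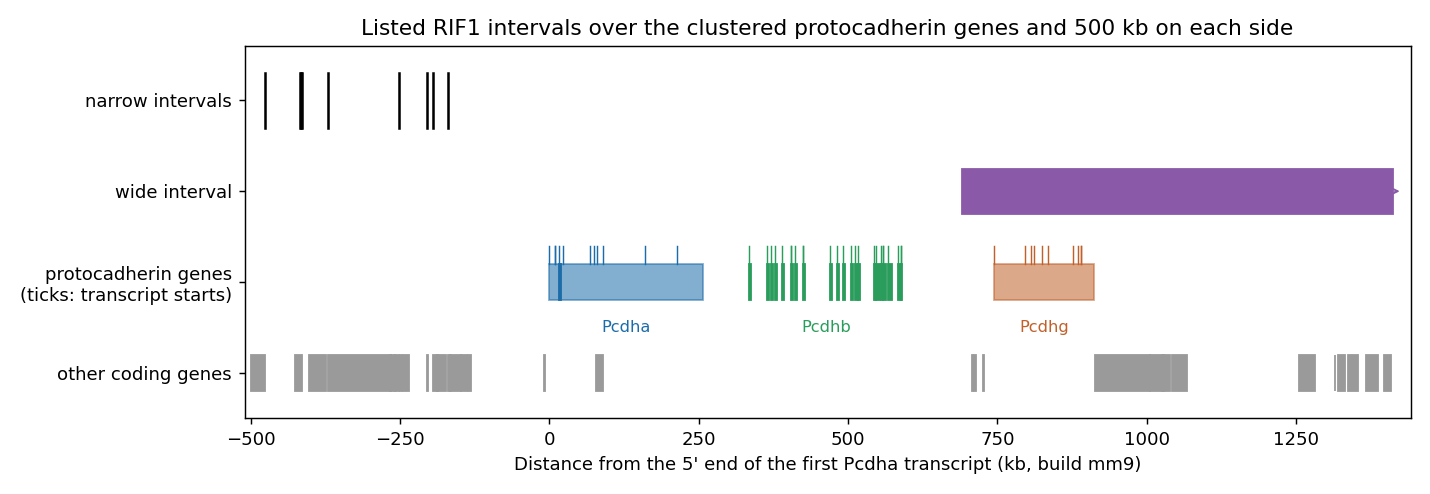
The horizontal axis gives the distance in kb from the 5′ end of the first Pcdha transcript, with 500 kb on each side of the clusters; black lines are the midpoints of peaks, the purple bar is the wide interval (the arrow marks that it runs on), coloured boxes are member genes with ticks at transcript starts, and grey boxes are other coding genes. The 9 peaks all lie before Pcdha, and the wide interval starts between Pcdhb and Pcdhg.

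At the 5′ ends, a peak was counted if it overlapped by at least 1 bp the 2 kb centred on it. This held for 0 of 24 members, against 31.8% of all coding genes and 41.4% of the 517 coding genes of chromosome 18. Over the gene itself the count was again 0 of 24, against 35.8% of all coding genes. A wide interval overlapped 1 of 24 members, against 22.6% of all coding genes. Because a gene in a wide interval can hardly have a peak, the genes outside wide intervals were also counted alone. Among these, 0 of 23 members had a peak at the 5′ end, against 40.8% of the 17329 coding genes. A count of 0 of 23 allows a share of up to 13%, again in counting error alone. The members are neighbours that share a single stretch of sequence, and Pcdha11 and Pcdhgc5 span their whole subclusters, so these counts describe 1 locus and not 24 separate observations.

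The Pcdha subcluster (chr18:37089939-37347311, 257 kb) held 0 peaks and no wide interval. Pcdha11 (ENSMUSG00000007440.7) covers this whole span, from the first variable exon to the shared constant exons. Pcdha3 (ENSMUSG00000091969.1, chr18:37105801-37108685) is annotated as a separate 2-exon gene within it. None of the 11 start sites of Pcdha met a peak, and the nearest peak lay 170 to 383 kb away, with a median of 237 kb. The start sites closest to a peak were thus those at the beginning of the subcluster, and all distances ran to the same peak at Wdr55.

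The Pcdhb subcluster (chr18:37424652-37681073, 256 kb) likewise held 0 peaks and no wide interval, although it is dense in genes. Its 21 coding members run from Pcdhb1 (ENSMUSG00000051663.3, chr18:37424652-37427108) to Pcdhb22 (ENSMUSG00000073591.2, chr18:37678007-37681073). Of these, 18 had transcripts of 1 exon, and the median gene was 3.44 kb long. Distances from their 5′ ends to the nearest peak rose along the row from 505 kb at Pcdhb1, through 651 kb at Pcdhb10, to 758 kb at Pcdhb22. Pcdhb20 is not annotated as protein-coding in GENCODE M1 and so is not among the 21, and adding it left the counts at 0.

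The Pcdhg subcluster (Pcdhgc5, ENSMUSG00000023036.7, chr18:37833989-38001527, 168 kb) was covered to 100% by the wide interval. All of its 10 start sites lay inside, so that a single call stands behind variable and constant exons alike. The interval (chr18:37780001-38660000) was 880 kb wide, rank 66 of the 289 by width, whose median was 576 kb. It was 1 of 5 on chromosome 18.

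The border of the wide interval fell between the subclusters. Pcdhb and Pcdhg are 153 kb apart, and the interval started 98.9 kb past the end of Pcdhb22, 17 kb before Slc25a2 (a mitochondrial carrier gene) and 54 kb before the first Pcdhg base. It ended 658 kb past Pcdhg, and the next peak followed after 99.9 kb. Both borders of the interval lie on multiples of 10 kb, as do 63.1% of the 578 borders of wide intervals, so the position of the border is not resolved to the base.

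Members were a small part of what the wide interval covered. Of its 16 coding genes, 15 were not members. They included Slc25a2, 3222401L13Rik and Taf7, a subunit of the general transcription factor TFIID, which lie between Pcdhb and Pcdhg, and further on Hdac3, a histone deacetylase, Diap1, an actin-nucleating formin, and the protocadherins Pcdh1 and Pcdh12, which stand outside the clusters. The interval held 18.2 coding genes per Mb, close to the median of 16 over the 289 wide intervals.

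Before the wide interval, the list was empty for 860 kb, from the last peak at Wdr55 to the border (chr18:36920128-37780000). This gap ranked 533 of 16311 gaps between neighbouring intervals, so that 3.27% of gaps were at least as long, against a median gap of 37.8 kb. On chromosome 18 it ranked 19 of 588. Among the 551 gaps that touch a wide interval, whose median was 112 kb, it ranked 51. The gap was thus in the upper tail, without being among the very longest. Sequence without peaks is common in this list, as 26% of 2557 tiles of 1 Mb held none. These tiles include those covered by wide intervals, whereas the gap held neither kind of interval.

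**Figure D2:**
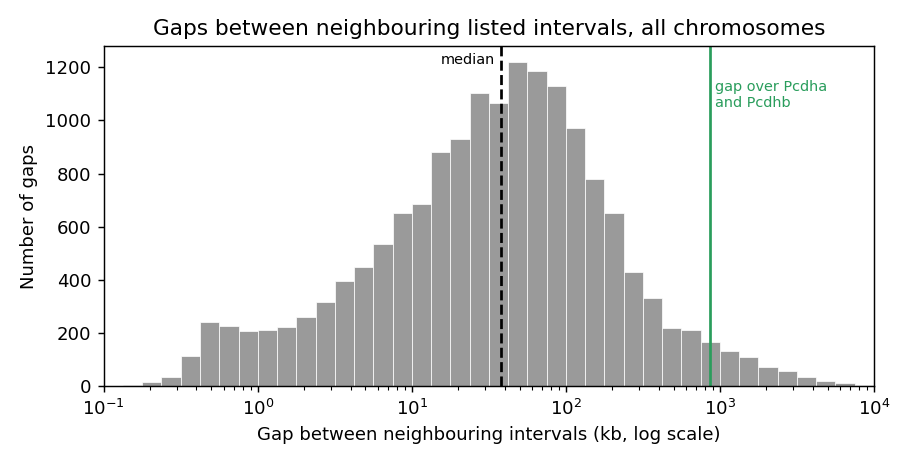
The horizontal axis gives the gap between neighbouring intervals of either kind in kb, on a log scale, and the bars the number of gaps over all chromosomes (16 of the 16311 gaps fall outside the plotted range). The gap over Pcdha and Pcdhb (860 kb, green line) lies in the upper tail, far above the median of 37.8 kb (dashed line).

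The gap took in Pcdha, Pcdhb and sequence before the clusters, but not Pcdhg. It held 29 whole coding genes, of which 23 (79.3%) were members and 6 were not. The 6 others were Dnd1, a germ cell RNA-binding factor, Hars and Hars2, the cytosolic and mitochondrial histidyl-tRNA synthetases, Zmat2, Gm6756 and Gm10545. Gm10545 starts within the Pcdha span. The 5′ ends of Hars and Hars2 lie side by side, and the nearest peak was 22.7 and 22.5 kb away. Dnd1 lay closer, with its 5′ end 5.74 kb from the nearest peak. Around their 5′ ends, Dnd1, Hars and Hars2 had 52.9, 50.7 and 51.4% GC and fully unique sequence (100% of 50-base words). Zmat2, Gm6756 and Gm10545 had 46.6, 48.4 and 48.2% GC, with 100, 82 and 89.5% of words unique. The part of GC and uniqueness in these absent calls was not tested. The last peak before the gap lay 170 kb ahead of Pcdha, so the stretch without peaks began outside the clusters and included genes needed for protein synthesis.

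The flanks differed in the form of occupancy. The 500 kb before Pcdha held 9 peaks and no wide interval, or 18 peaks per Mb. Most of these peaks were narrow, as 2 of the 9 (4 per Mb) reached the median width of 1365 bp, and the 250 kb nearest to Pcdha held 3 (12 per Mb). Of these peaks, 7 met the 5′ end of a coding gene, and 8 of the 19 coding genes starting there had one. They were Pfdn1, Hbegf, Ankhd1, Apbb3, Slc35a4, Cd14, Tmco6 and Wdr55, of which Apbb3 and Slc35a4 shared a peak. Cd14, which encodes a co-receptor for LPS, had a 1149 bp peak (chr18:36885343-36886491). Hbegf, a growth factor of the EGF family, had 3 peaks over its gene. The 500 kb after Pcdhg held 0 peaks and were covered to 100% by the wide interval, together with all 11 coding genes that start there.

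Base composition also differed between the long stretches on either side of the border. GC content was 40.4% in Pcdha, 40.4% in Pcdhb and 45.2% in Pcdhg. It was 40.6% over the gap and 46.1% over the wide interval, close to the median of 45.4% over all wide intervals. In steps of 20 kb, it ran from 38.6 to 41.7% in the 100 kb before the border and from 42 to 45.2% in the 100 kb after it. The steps that meet at the border had 41.7% and 42%, so GC content showed no jump there. Its part in where intervals were called was not tested.

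Peaks were called from reads that align to a single place, and the clusters consist of related genes, so the share of unique sequence was measured. Around the 5′ ends of the 24 members, the share of 50-base words found once in the mm9 genome ran from 87.2% (Pcdhb9) to 100%, with a median of 99.9%, against a median of 100% over all coding genes. It was at least 95% in 16 members and lower in 8, among them Pcdha11 (93.6%), Pcdha3 (91.1%), Pcdhb6 (89.1%) and Pcdhb12 (87.6%). Outside the wide interval, the count of peaks was 0 in the 15 members at or above 95%, such as Pcdhb1, Pcdhb16 and Pcdhb22 (100% each), and 0 in the 8 below it. The part of uniqueness in these counts was not tested. Over whole subclusters the share was 83.1% in Pcdha, 87.5% in Pcdhb and 96.6% in Pcdhg, against 91.4% on chromosome 18. It was lower between Pcdhb and Pcdhg, at 75.7%, and between 58 and 64.8% in the steps from 80 to 20 kb before the border. In the 20 kb right before the border it was 83.9% and in the 20 kb right after it 62.8%. Uniqueness thus differed around the place where the wide interval starts, and its part in the position of the border was not tested. The read length is not given in the sources used here. With words of 36 bases the shares were 79.1%, 82% and 94.5% in Pcdha, Pcdhb and Pcdhg.

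The 5′ ends of the members were poor in GC, and those of most Pcdhb genes also in CpG. All 24 members lay below the median GC content of all coding genes and 21 below their median CpG ratio. In the 2 kb around them, the median GC content was 42.1% (range 40.2 to 47.4%) and the median CpG observed over expected was 0.35 (0.138 to 0.601), against 51.1% and 0.468 over all coding genes. The 3 members above the median CpG ratio were Pcdha11 (0.601), Pcdha3 (0.566) and Pcdhb1 (0.481). By start site, the median CpG ratio was 0.62 in Pcdha (0.52 to 0.703), 0.342 in Pcdhb and 0.499 in Pcdhg, so that start sites in Pcdha all lay above the median of coding genes. Coding genes with a peak at the 5′ end had medians of 53.6% and 0.644. None of the 24 windows reached both 50% GC and a CpG ratio of 0.6, whereas 29.7% of all coding genes did. Counted by start site, 3 of 46 did, 2 in Pcdha and 1 in Pcdhg, where GC reached 58.4% and 53.4%.

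RIF1 is known to bind G-quadruplexes, structures formed by runs of G. A quadruplex motif (4 runs of at least 3 G, 1 to 7 bases apart, on either strand) was found in 0 of the 24 windows, against 55.2% of all coding genes. By start site it was found in 6 of 46, 1 in Pcdha, 0 in Pcdhb and 5 in Pcdhg. These letters in a window are a description and do not show that a structure forms.

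**Figure D3:**
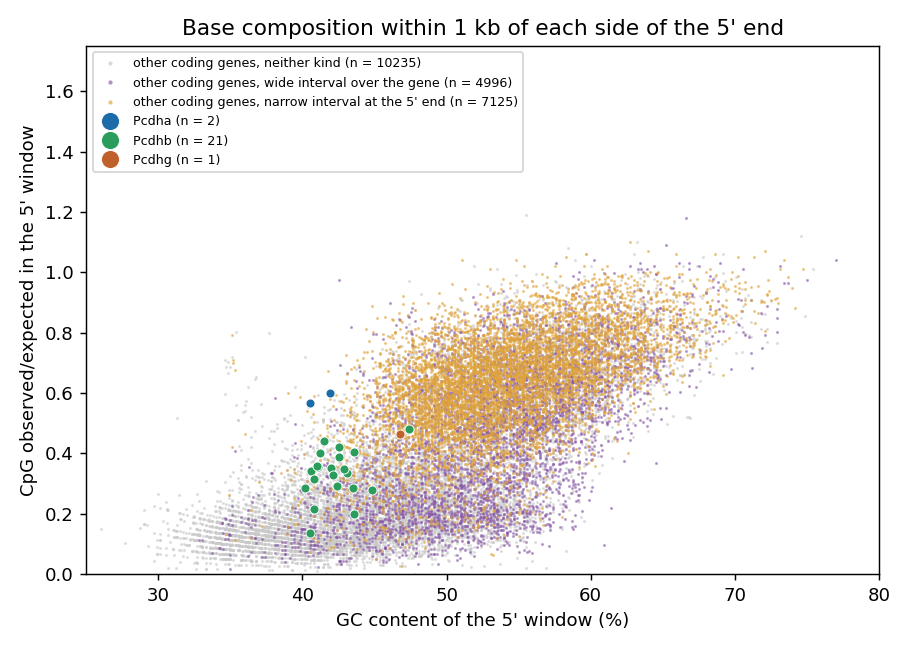
Each point is a coding gene, with GC content (%) on the horizontal axis and the CpG observed over expected ratio on the vertical axis, both over the 2 kb centred on the 5′ end. Members (large points) lie between 40.2 and 47.4% GC, below most genes with a peak at the 5′ end (orange, median 53.6%).

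Composition was related to the presence of peaks over all genes. Outside wide intervals, 71.8% of the 5145 coding genes with a GC- and CpG-rich window had a peak at the 5′ end, against 27.7% of the 12184 without. Among the 2861 other coding genes outside wide intervals whose window lay within the members' own ranges of GC and CpG, the share was 19.4%. The 0 of 23 members thus stood beside a background of 19.4% among genes of like composition and of 40.8% among all genes outside wide intervals. How far composition, unique sequence and neighbourhood each bear on the count was not tested.

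Some protocadherins outside the clusters were met by peaks. There are 12 such genes, each with its own promoter and position (symbol Pcdh followed by a number), and 6 (50%) had a peak at the 5′ end, against 31.8% of all coding genes. These were Pcdh7, Pcdh8, Pcdh9, Pcdh10, Pcdh17 and Pcdh19. The peak at Pcdh7 was 5245 bp wide, and its midpoint lay at -0.219 kb, where a minus sign stands for upstream of the 5′ end. At Pcdh10 a 3761 bp peak lay over the 5′ end and a 1293 bp peak followed within the gene, and Pcdh17 likewise had 2 peaks (2586 and 2462 bp). At Pcdh9 the peak lay wholly upstream, with its midpoint at -2.05 kb, and came only just within the 1 kb window. Pcdh11x had a 414 bp peak inside the gene, 2.53 kb from its 5′ end at the near edge. Pcdh1 and Pcdh12 lay in the same wide interval as Pcdhg. Pcdh15, Pcdh18 and Pcdh20 had neither, and their nearest peaks were 443, 685 and 1050 kb away.

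The 12 single genes differed from the clustered ones in composition too, with a median GC content of 53.4% and a CpG ratio of 0.656. The window around the 5′ end of Pcdh9 had 44.4% GC and a CpG ratio of 0.256, within the range of the clustered members. Its peak only just reached that window, so these values are not those of the peak. Pcdh15 had no peak, with 58.3% and 0.766 in its window. These 2 genes are exceptions among the 12, of which 7 reached both 50% GC and a CpG ratio of 0.6. The 7 were Pcdh7, Pcdh8, Pcdh10, Pcdh17 and Pcdh19, each with a peak at the 5′ end, Pcdh1 in the wide interval, and Pcdh15. Pcdh11x, Pcdh18 and Pcdh20 reached at most 1 of the 2 values and had no peak at the 5′ end. The part of composition in these calls was not tested. The promoters of Pcdh10 and Pcdh18, both on chromosome 3, are shown as a pair chosen with their calls known. The former lay under a peak and the latter 685 kb from one. Over the 2 kb around the 5′ end, they had 50.8% and 47% GC, with CpG ratios of 0.644 and 0.669. In the shorter stretch printed here they are nearly alike in CpG content. The 300 bases run from 250 before to 50 after the annotated 5′ end, 5′ to 3′ on the gene's strand, from the mm9 genome, with CG pairs in capitals (24 in Pcdh10 and 23 in Pcdh18, at 62.3% and 63% GC). They lie at chr3:45182070-45182369 on the plus strand and chr3:49561189-49561488 on the minus strand.
Pcdh10: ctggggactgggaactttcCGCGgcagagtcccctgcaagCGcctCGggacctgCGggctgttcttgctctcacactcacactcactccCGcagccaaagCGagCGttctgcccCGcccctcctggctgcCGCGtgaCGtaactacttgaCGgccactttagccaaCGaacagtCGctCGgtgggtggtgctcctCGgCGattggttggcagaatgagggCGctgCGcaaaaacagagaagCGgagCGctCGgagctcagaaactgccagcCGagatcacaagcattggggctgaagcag
Pcdh18: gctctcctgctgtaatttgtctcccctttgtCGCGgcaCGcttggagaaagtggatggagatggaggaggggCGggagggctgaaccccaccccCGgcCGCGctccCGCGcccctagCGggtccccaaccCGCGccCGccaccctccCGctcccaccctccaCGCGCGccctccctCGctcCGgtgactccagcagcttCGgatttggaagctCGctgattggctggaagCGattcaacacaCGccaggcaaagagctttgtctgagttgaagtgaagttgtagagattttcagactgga

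Other gene groups were counted in the same way to place the clusters. Hox genes, which also lie in clusters but have GC-rich promoters (median 54.3%), had a peak at the 5′ end in 10 of 40 genes (25%) and a wide interval over 0. The shares over all coding genes were 31.8% for a peak at the 5′ end and 22.6% for a wide interval. Vomeronasal receptor genes, large tandem families used in sensory neurons, had a peak at the 5′ end in 0 of 328 and a wide interval over 18 (5.49%). Their median GC content was 36.3%, and the median distance to a peak was 495 kb, against 656 kb for the clustered protocadherins and 41.1 kb for all coding genes. Around the 5′ ends of vomeronasal receptor genes, a median of 85.6% of 50-base words was unique, against 99.9% in the clustered protocadherins. The clustered protocadherins and the vomeronasal receptor genes thus both had no peak at a 5′ end, while a part of the Hox genes and of the single protocadherins had one. Genes of a family share their surroundings, and the differences between groups were not tested.

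**Figure D4:**
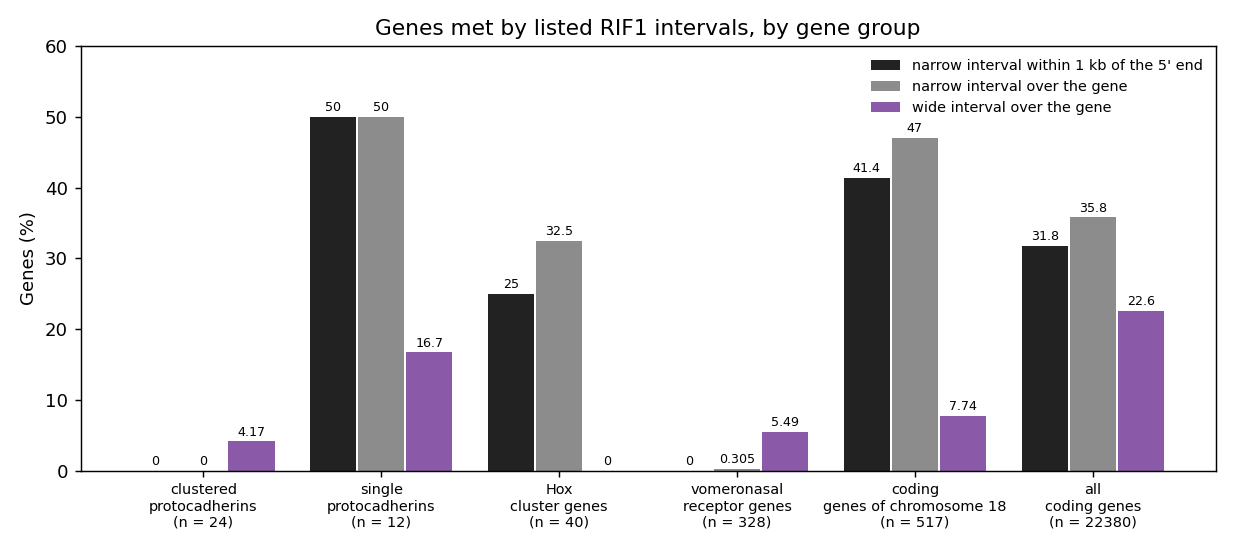
Bars give the percent of genes in each group with a peak within 1 kb of the 5′ end (black), a peak over the gene (grey) or a wide interval over the gene (purple), with the number of genes under each group. Clustered protocadherins stand at 0, 0 and 4.17%, and single protocadherins at 50, 50 and 16.7%.

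Genes whose products are known to act on the clusters or with their proteins were counted from 3 lists. Of 11 genes of CTCF and the cohesin machinery, 5 had a peak at the 5′ end and 2 others lay in a wide interval. Rad21, which encodes the cohesin ring subunit cleaved at anaphase, had 2 peaks at its 5′ end. Peaks were also found at Nipbl, the cohesin loader, at Wapal, which releases cohesin, and at Pds5a and Pds5b. Smc3 and Mau2 lay in wide intervals. The 4 others were Ctcf and Smc1a, with the nearest peak 12.9 and 14 kb away, Stag1, with a peak inside the gene, and Stag2, 211 kb from a peak.

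Of 9 genes with a known part in silencing chromatin, including that of the clusters, 3 had a peak at the 5′ end and 4 others lay in a wide interval. The former were Smchd1, a structural maintenance protein known to repress the clusters, and the DNA methyltransferases Dnmt3a and Dnmt3b. Dnmt3a had 4 peaks over its gene. Dnmt1, Trim28, Wiz and Ehmt2 lay in wide intervals. Setdb1 and Ehmt1, which encode histone H3 lysine 9 methyltransferases, had neither, with peaks 28.4 and 14.7 kb away. At Setdb1 62.6% of 50-base words around the 5′ end were unique.

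Of 11 genes for protein partners and proteases of protocadherins, 7 had a peak at the 5′ end and 2 others a wide interval. They were the kinase genes Ptk2 and Ptk2b, the WAVE complex genes Wasf1, Cyfip1, Nckap1 and Abi2, and the adaptor gene Pdcd10. Wasf2 and Cyfip2 lay in wide intervals, and Abi1 and Adam10 had neither. The 3 lists are short, and their shares of 45.5%, 33.3% and 63.6% at the 5′ end stand beside the 31.8% of all coding genes without a test. Their shares in wide intervals were 18.2%, 44.4% and 18.2%, beside the 22.6% of all coding genes.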

How the data were processed

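ChIP-seq reads were, as the study describes, trimmed with Trim Galore 0.6.4 and aligned by the authors to mm9 with Bowtie 1.0.0, keeping reads that align once. Peaks were called per replicate with MACS2 2.2.6 and broad domains with EDD, and both were merged with bedtools 2.27.1 where both Rif1FH replicates had a call. The deposited file holds chromosome, start and end as positions in bp, with no score, so depth per sample is unknown. The antibody label names the CD43 beads used to isolate B cells, and the anti-HA antibody of the protocol was followed.

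Coordinates are counted from 1. Intervals were split at 50 kb, a value chosen with their widths known. A gene's 5′ end is that of its gene record, and CpG observed over expected is the count of CG times the length, divided by the product of the C and G counts. Unique words were counted exactly on both strands of the mm9 genome, with no mismatch, although the alignment allowed mismatches. Members and gene lists were chosen with earlier results of these data known. A gene of the lists is not reported here. Every gene of the lists, the first and last members of the subclusters and every neighbour with a peak were to be named, and further members serve as examples. Intervals were matched to genes and words counted with code that was tested on simulated data. Python 3.11.15, numpy 2.4.6 and numba 0.67.0 were used.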

Additional observations from a re-analysis of the deposited data

How the results depend on the processing

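Of 5 results, 20 alternatives were computed, and 14 of them concern counts of 0. The counts of members with a peak at the 5′ end or over the gene, and the density of peaks in the cluster span, stayed at 0 in these 14, which set the window at 0.5, 2 or 5 kb, took the start of any coding transcript, first exons, all exons or the 3 subclusters alone, asked for a larger overlap (50% of the peak), kept peaks of at least the median width of 1365 bp, or added genes of any type. Over all coding genes these settings moved the share with a peak at the 5′ end from 20.2% to 34.8%. For the members and the span no value other than 0 was possible. The span held 0 peaks, and the nearest peak lay 170 kb from the first start site. The count of members in a wide interval stayed at 1. The density of 9 peaks per Mb over both flanks fell to 2 with peaks of at least the median width, and was 18 over sequence outside wide intervals, an alternative chosen after seeing the data. Flanks of 250 and 1000 kb gave 6 and 8.5 peaks per Mb.

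No paired analysis was possible because both Rif1FH samples were combined before deposit, and leaving out a replicate was not run for the same reason. With positions alone, the depth and the level of signal under or outside an interval are unknown, and an absent interval is an absent call.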
